A study of Glycine max with 4 samples.

Results

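The shoot tips of 2 soybean isolines were compared by RNA-seq: Clark standard, the wild type, and Clark five-foliate, a leaf mutant called the mutant from here on. Both lines share the cultivar Clark, and the tissue came from several 4-week-old plants of each line, kept in a greenhouse under optimal conditions; whether plants were pooled into a library is not stated. Each line had 1 shoot tip library, so differences are described by size, without replicate error and without p-values. A vegetative bud library of each line, 1 per line, is set beside the shoot tip values as a second tissue. The comparison covers the 36537 genes with at least 1 RPKM (reads scaled by gene model length and by the mapped reads of the library) in either shoot tip library, of 69145 genes listed. The gene model with the highest mean level over the 4 libraries stood for each gene.

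Standard soybean leaves carry a terminal leaflet and a lateral pair, and the mutant takes its name from a higher leaflet number. Leaflets arise early, while the leaf primordium at the flank of the shoot apex keeps dividing and holds back differentiation. In many compound-leaved plants this phase is prolonged by KNOX homeobox proteins, and in the legumes pea and Medicago an orthologue of the floral regulator LEAFY takes over part of that role. A harvested tip holds the apex together with young leaves, so a bulk library mixes dividing, expanding and greening cells. Fewer cells of a type and less RNA per cell cannot be told apart in such a library.

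None of the identifiers in the deposited tables matched a named gene in the reference table, so the genes of these pathways and the defining markers of the tissue could not be looked up. Genes are therefore described by chromosome, level and pattern, and identifiers are printed for 2 genes in each direction. The whole reads behind the values were recovered from them. They gave totals of 152791817 alignments for the standard and 139769051 for the mutant shoot tip, and 97532923 and 103618555 for the standard and mutant buds. A gene model of 1 kb with 3 reads has 0.0196 and 0.0215 RPKM in the standard and mutant shoot tips.

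The largest differences in the shoot tip were mostly towards lower levels in the mutant line. On the log2(RPKM + 1) scale, 87 genes were at least 8-fold lower in the mutant library and 3 were at least 8-fold higher. At 4-fold there were 335 lower and 152 higher genes. At 2-fold the balance was the other way, with 2780 genes higher and 1717 lower, which is 7.61% and 4.7% of the genes, and 12.3% in either direction. The 1 added to each value understates the change of genes near 1 RPKM.

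The balance at 2-fold depended on how the libraries were scaled, whereas at 4-fold and 8-fold lower genes outnumbered higher ones in every scaling, pseudocount and filter tried. The median gene was 1.27-fold higher in the mutant library, a log2 ratio of 0.34. With every ratio shifted by that median, 2997 genes were at least 2-fold lower (8.2%) and 1108 at least 2-fold higher (3.03%). Upper-quartile scaling gave 2499 lower and 1256 higher genes, and scaling without the 20 most abundant genes 2113 and 1734. With centred ratios 559 genes were at least 4-fold lower and 32 at least 4-fold higher. At 4-fold the lower and higher genes numbered 104 and 39 with a pseudocount of 5, and 808 and 684 with a pseudocount of 0.1. The lower tail of the distribution was also the longer one around its centre: relative to the median, the log2 ratio was -2.27 at percentile 1 and 1.42 at percentile 99.

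**Figure D1:**
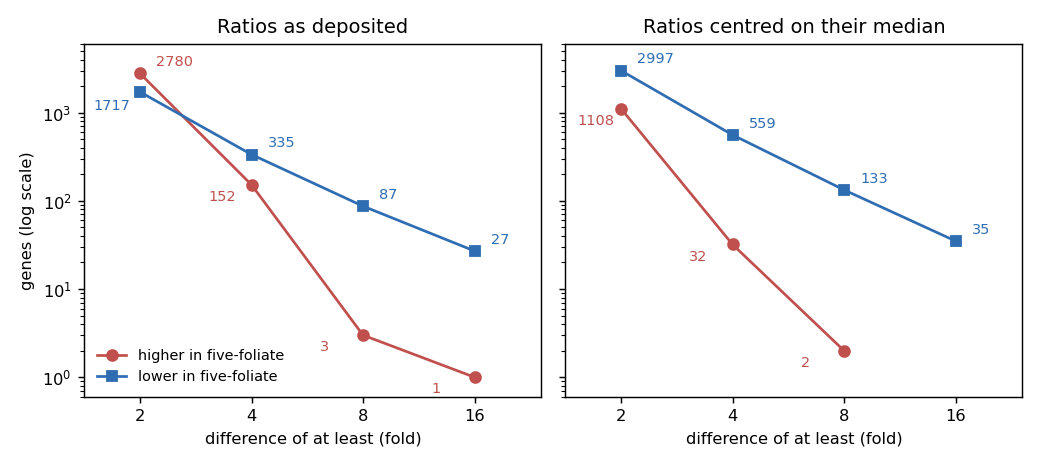
Number of genes (log scale) at least 2-, 4-, 8- or 16-fold higher (circles) or lower (squares) in the five-foliate shoot tip than in the standard shoot tip, with ratios as deposited on the left and centred on their median on the right. Lower genes outnumber higher ones from 4-fold on in both panels, and the count of 0 higher genes at 16-fold after centring is not drawn.

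Abundant genes differed more often than weakly expressed ones. Of 715 genes with a mean of at least 100 RPKM over the shoot tip libraries, 134 (18.7%) were at least 2-fold lower and 126 (17.6%) at least 2-fold higher in the mutant line. Of the 13576 genes between 5 and 20 RPKM, 560 (4.12%) were lower and 1217 (8.96%) higher. Among the 8078 genes under 2 RPKM the shares were 3.86% and 3.64%, where the added 1 leaves little room for a 2-fold ratio. The spread of the ratios was similar in the 3 lower classes and wider in the upper 2. The interquartile range of the log2 ratios was from -0.11 to 0.51 under 2 RPKM, from 0.05 to 0.60 at 2 to 5 RPKM and from 0.07 to 0.65 at 5 to 20 RPKM. It was from -0.18 to 0.68 at 20 to 100 RPKM and from -0.79 to 0.76 in the class of 100 RPKM and over.

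Among the genes of 100 RPKM and over, 32 lay in the 2 runs of neighbouring genes on chromosome 13 described further on. The runs are made of higher genes, so all 32 count among the 126 higher genes and leaving them out can only lower that number. The other 683 abundant genes comprised 94 higher (13.8%) and 134 lower (19.6%) genes. After centring, 28.1% of the 715 abundant genes were at least 2-fold lower and 10.8% at least 2-fold higher.

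**Figure D2:**
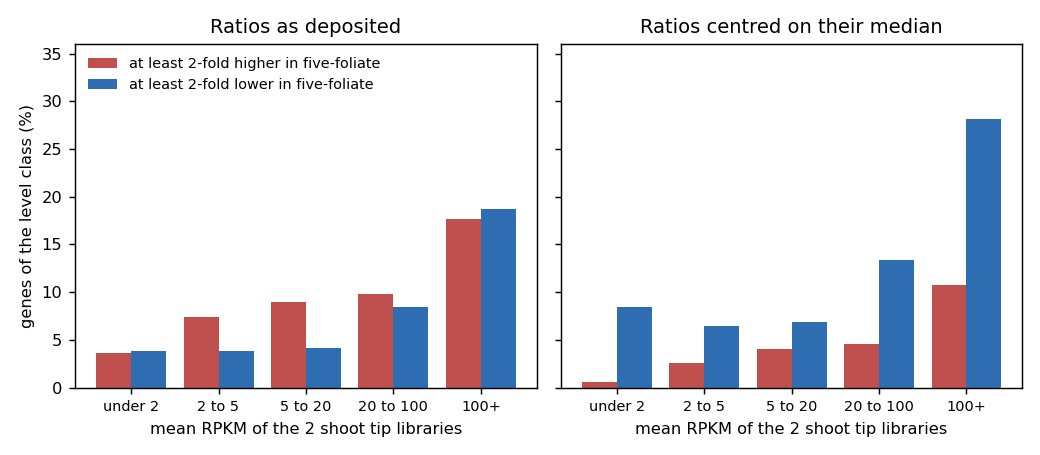
Share of genes (percent) at least 2-fold higher (left bar of each group) or lower (right bar) in the five-foliate shoot tip, by mean RPKM of both shoot tip libraries, with ratios as deposited and centred on their median. The class of 100 RPKM and over stands highest in both directions and both panels.

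Glyma04g35130 on chromosome 4 had the lowest ratio of all genes with at least 5 RPKM in the higher library. Its level was 480.4 and 0.181 RPKM in the standard and mutant tips, from 142173 and 49 reads. The buds showed the same contrast, with 166 RPKM for the standard against 0.135 RPKM for the mutant bud. The standard tip level was 2654-fold the mutant one (95% exact binomial interval of the reads 2008 to 3588). This interval and those that follow cover counting error only and compare libraries.

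Glyma15g06270 on chromosome 15 was next, and its pattern differed by tissue. It had 1484 and 8.27 RPKM in the standard and mutant tips, a 179.6-fold difference (interval 161 to 201). In the buds it was at 0.190 RPKM for the standard against 0.322 RPKM for the mutant line, from 5 and 9 reads. The gene was thus abundant in the standard shoot tip, far lower in the mutant tip and close to the 3-read floor in both buds. Its mutant tip level was still above the median of 5.39 RPKM in that library over the genes of the comparison.

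The 12 genes with the lowest ratios lay on 10 chromosomes and were between 31.5-fold and 2654-fold higher in the standard tip, with a median of 131-fold. Their standard tip levels ran from 26.3 to 1484 RPKM and their mutant tip levels from 0.0125 to 40.8 RPKM. The standard shoot tip was the highest of the 4 libraries for 11 of the 12, against 17.4% of all genes, and the choice of the lowest ratios favours this. Both buds were under 1 RPKM for 5 of the 12, against 5.79% of all genes. In the mutant bud 2 of the 12 were at least 2-fold lower as well, against 0.134% of all genes in the comparison, and both of these were on chromosome 4. The one not yet described had 26.3 RPKM in the standard tip, 0.0559 in the mutant tip, and 7.64 and 0.0251 in the standard and mutant buds. Its 3 reads in the mutant tip against 1545 in the standard tip gave a ratio of 471 (interval 161 to 2287).

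Genes on chromosomes 5 and 19 in this list had almost the same profile. The first had 1389 RPKM for the standard against 37.8 RPKM for the mutant tip, with 9.55 and 6.78 RPKM in the standard and mutant buds. The second had 1286 and 40.8 RPKM in the tips and 8.62 and 6.11 RPKM in the buds. The standard tip levels were 36.7-fold and 31.5-fold the mutant ones, and the bud levels differed by less than 2-fold. On chromosome 14 a gene showed a like pattern at a lower level, with 92.9 RPKM in the standard tip against 2.40 in the mutant tip, and 4.85 and 3.47 RPKM in the standard and mutant buds.

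Other members of the list were read in the standard shoot tip and almost nowhere else. A gene on chromosome 8 had 46.8 and 0.673 RPKM in the standard and mutant tips, and a gene on chromosome 10 had 39.97 and 0.477 RPKM. Both were listed at 0 in both buds. A gene on chromosome 6 had 29.8 RPKM in the standard tip, from 2617 reads, and 1 read in the mutant tip, with 3 reads or fewer in each bud. A second gene on chromosome 6 had 42.1 RPKM against 0.337 RPKM in the tips and 0.704 against 0.454 RPKM in the buds, standard before mutant. For the first of them the ratio of the tip levels was 2394, and with 1 read below it the interval ran from 429 to 94592.

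A gene on chromosome 3 was higher in both buds than in the standard tip. It had 31.7 and 0.231 RPKM in the standard and mutant tips and 59.5 and 72.5 RPKM in the standard and mutant buds. The mutant shoot tip was thus the low library of the 4, with 23 reads against 3452 or more in each of the others. A gene on chromosome 1 followed another order, with 37.3 and 0.0716 RPKM in the standard and mutant tips and 0.718 and 11.5 in the standard and mutant buds.

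Among the genes with the highest ratios, Glyma13g25800 on chromosome 13 led with no read in the standard shoot tip and 15.2 RPKM, or 2112 reads, in the mutant shoot tip. With 3 reads in place of 0 in the standard tip, its mutant level was 769.6-fold higher. The lower limit of the exact interval of the reads themselves was 625-fold. The standard bud held 1 read and the mutant bud 12.9 RPKM. The gene was therefore read almost only in the mutant libraries.

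Glyma02g09290 on chromosome 2 had 1.09 RPKM for the standard against 24.0 RPKM for the mutant tip, 22.05-fold higher (interval 19.3 to 25.3). Its bud levels were 3.22 RPKM for the standard against 36.1 RPKM for the mutant line. The mutant libraries were the high ones in both tissues.

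The 12 genes with the highest ratios showed smaller differences than the 12 lowest, with a median of 19.8-fold against 131-fold. They ran from 7.97-fold to 769.6-fold, where the upper end takes 3 reads in place of 0. Their mutant tip levels ran from 6.23 to 127 RPKM. In the bud, 7 of the 12 were also at least 2-fold higher in the mutant line, against 0.569% of all genes in the comparison, and the other 5 were under 2-fold there. A gene on chromosome 15 had 3 reads in the standard tip against 374 reads in the mutant tip, a ratio of 136 (interval 46.3 to 664), and 0.349 against 7.93 RPKM in the standard and mutant buds. On chromosome 11 the levels were 0.205 and 7.36 RPKM in the tips and 0.152 and 7.25 RPKM in the buds, and on chromosome 3 they were 1.39 and 14.4 RPKM in the tips and 2.08 and 12.1 RPKM in the buds. In all 7 genes both mutant libraries stood above both standard libraries. The last 2 of the 7 had the smallest bud differences, with bud log2 ratios of 1.03 and 1.15 against 2.09 or more in the others. Their shoot tip log2 ratios were 3.06 and 2.88. On chromosome 15 another gene had 0.598 and 12.3 RPKM in the standard and mutant tips and 3.32 and 7.82 RPKM in the buds, and a second gene of chromosome 2 had 0.551 and 10.4 RPKM in the tips and 0.645 and 2.66 RPKM in the buds. The bud values took no part in choosing these genes, except in picking the model that stood for a gene.

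Of the 5 under 2-fold in the bud, 3 were at higher levels in both buds than in either tip. The most abundant of them, on chromosome 9, had 15.4 and 127 RPKM in the standard and mutant tips, and 1520 and 1461 RPKM in the standard and mutant buds. On chromosome 7, a gene had 7.88 and 62.8 RPKM in the standard and mutant tips and 111 and 93.9 RPKM in the buds. The third, on chromosome 16, had 3.98 and 34.3 RPKM in the tips and 80.9 and 72.3 RPKM in the buds. For these 3 genes the mutant tip lay between the standard tip and the buds. The reverse case was a gene on chromosome 12, with 5.17 and 43.4 RPKM in the tips and 2.64 and 2.74 RPKM in the buds, so that the mutant tip stood above the other 3 libraries. The last, on chromosome 14, rested on 3 reads in the standard tip and 115 in the mutant tip, a ratio of 41.9 (interval 13.98 to 206), with both buds under 1 RPKM.

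**Figure D3:**
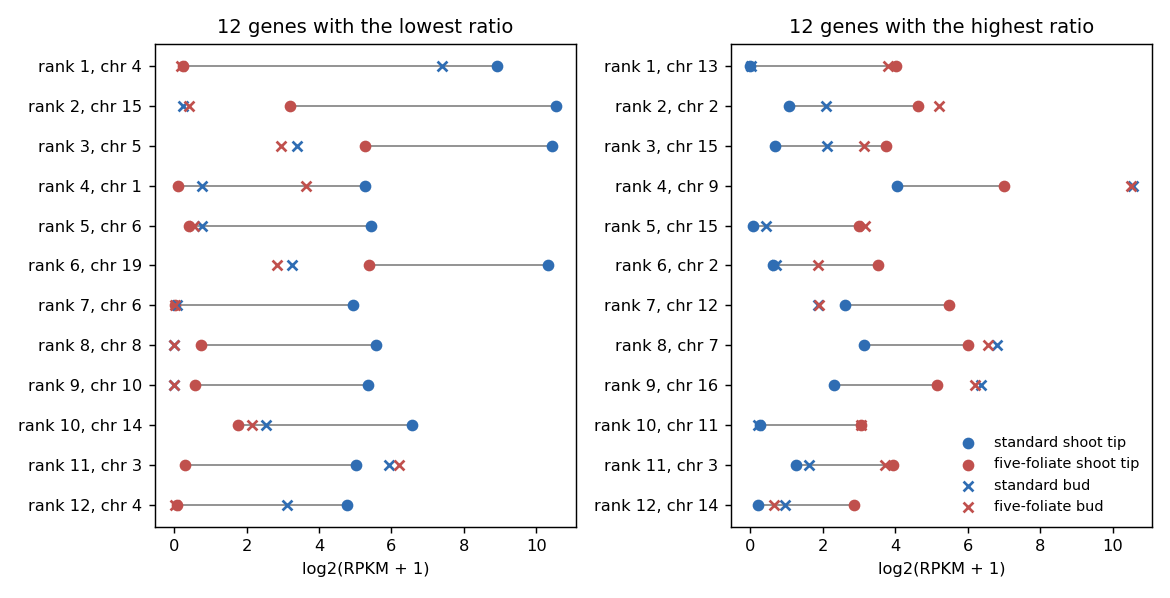
Levels, as log2(RPKM + 1), of the 12 genes with the lowest and the 12 with the highest five-foliate to standard ratio in the shoot tip, in rank order with their chromosome; filled circles are shoot tip libraries joined by a line, crosses are bud libraries, and each point is 1 library. In the left panel the standard shoot tip is highest for 11 of 12 genes, which the choice of the lowest ratios favours.

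**Figure D4:**
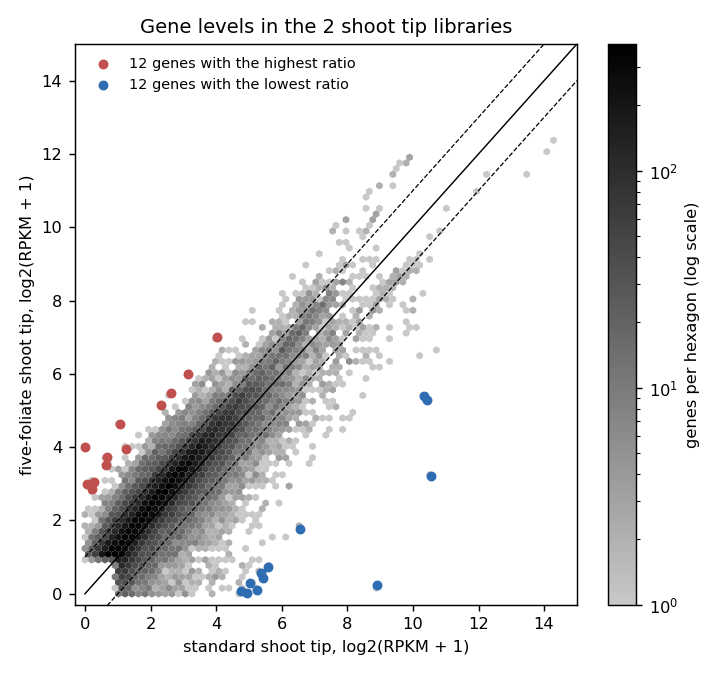
Level of each of the 36537 genes in the standard (x axis) and five-foliate (y axis) shoot tip libraries, as log2(RPKM + 1); shading gives genes per hexagon on a log scale, the solid line marks equal levels and the dashed lines 2-fold differences. The 12 lowest ratios, down to 0.181 against 480.4 RPKM, lie farther from the diagonal than the 12 highest.

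Genes on in only 1 of the shoot tips were more numerous on the standard side. With at least 1 RPKM in 1 library and at most 0.1 RPKM in the other, 131 genes (0.359% of the comparison) were on in the standard tip alone and 32 (0.0876%) in the mutant tip alone. Of these, 40 and 9 had no read at all in the other library. Of the 131 and 32 genes, 22 and 2 reached 5 RPKM. The highest levels reached were 37.3 RPKM on the standard side and 15.2 RPKM on the mutant side.

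The buds divided these genes further. Of the 131 standard-only genes, 31 were at most 0.1 RPKM in both buds, 7 were at 1 RPKM or more in both buds and 16 showed the same on and off pattern between the bud libraries. Of the 32 mutant-only genes, 1 was off in both buds, 11 were on in both and 7 repeated the pattern. No share over all genes stands beside these bud counts, so they do not show whether the patterns are unusual. Chromosome 3 held the most standard-only genes, 13 of the 131, among its 1678 genes in the comparison. Chromosomes 6, 17 and 18 held 10 each, among 2100, 1821 and 1900 genes. Chromosomes 8, 12 and 15 held 8 each, among 2409, 1543 and 1792 genes, and chromosome 13 held 7 among 2385. Over all genes of the comparison the standard-only share was 0.359%. How far these counts follow the number of genes on a chromosome was not tested. The mutant-only genes were spread thinly, with at most 4 on a chromosome.

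The most abundant transcripts of the standard shoot tip were at lower levels in the mutant. All 20 genes with the highest standard tip level had a negative log2 ratio, from -7.32 to -0.43, and 15 were at least 2-fold lower. They were chosen by their standard level, which favours a lower level elsewhere. The first 2, both on chromosome 19, had 19969 and 17198 RPKM in the standard tip and 5297 and 4572 RPKM in the mutant tip, differences of 3.77-fold and 3.76-fold. Their read numbers were close to each other in each library, with 2617871 and 2603992 in the standard tip. How many of those reads match both genes was not tested. The third, on chromosome 13, had 11948 and 2822 RPKM in the standard and mutant tips.

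The 3 leading genes were far lower in the buds, where the genotypes differed little. The first had 848 RPKM for the standard against 715 RPKM for the mutant bud, and the third had 476 and 402 RPKM. In the same list, a gene on chromosome 11 and another on chromosome 18 were chosen after their values were seen, for steeper differences, from 1575 to 99.9 RPKM and from 1177 to 91.8 RPKM between the standard and mutant tips. Their bud levels lay between 25.4 and 39.8 RPKM.

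The list of the 20 most abundant genes of the mutant shoot tip was of another make-up. It shared 6 genes with the standard list, and 15 of the 20 lay on chromosome 13. In the mutant tip 14 of them were at least 2-fold higher and 4 at least 2-fold lower, against 7.61% and 4.7% of all genes. The list was chosen by mutant tip level, which favours a higher level there. All 14 higher genes lay on chromosome 13. These 20 genes held 13.2% of the RPKM sum in the standard tip, 10.4% in the mutant tip, and 8.56% and 12.98% in the standard and mutant buds.

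Chromosomes 13 and 19 differed most between the shoot tips in their share of the RPKM sum over all listed genes. Chromosome 13 held 9.99% of it in the standard tip, 15.7% in the mutant tip, and 16.3% and 22.3% in the standard and mutant buds. Chromosome 19 held 11.2% and 5.78% in the standard and mutant tips and 4.49% and 4.10% in the standard and mutant buds. The genes of chromosome 19 other than its 2 most abundant held 4.21% and 4.05% in the standard and mutant tips. The genes of chromosome 13 other than 40 in the runs described below held 7.45% and 6.26%. Those 40 were picked as higher in the mutant, and the third most abundant gene of the standard tip was still among the rest. Without that gene as well, a setting chosen after seeing the data, the shares were 5.19% and 5.76%.

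By number of differing genes the chromosomes lay closer together. The share of genes at least 2-fold different in either direction ran from 10.1% on chromosome 16 to 14.9% on chromosome 11, around 12.3% for all. Higher genes were most frequent on chromosome 11 (168 of 1802, 9.32%) and lower genes on chromosome 1 (102 of 1660, 6.14%). Higher genes outnumbered lower ones on all 20 chromosomes as deposited, and with centred ratios lower genes outnumbered higher ones on all 20.

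**Figure D5:**
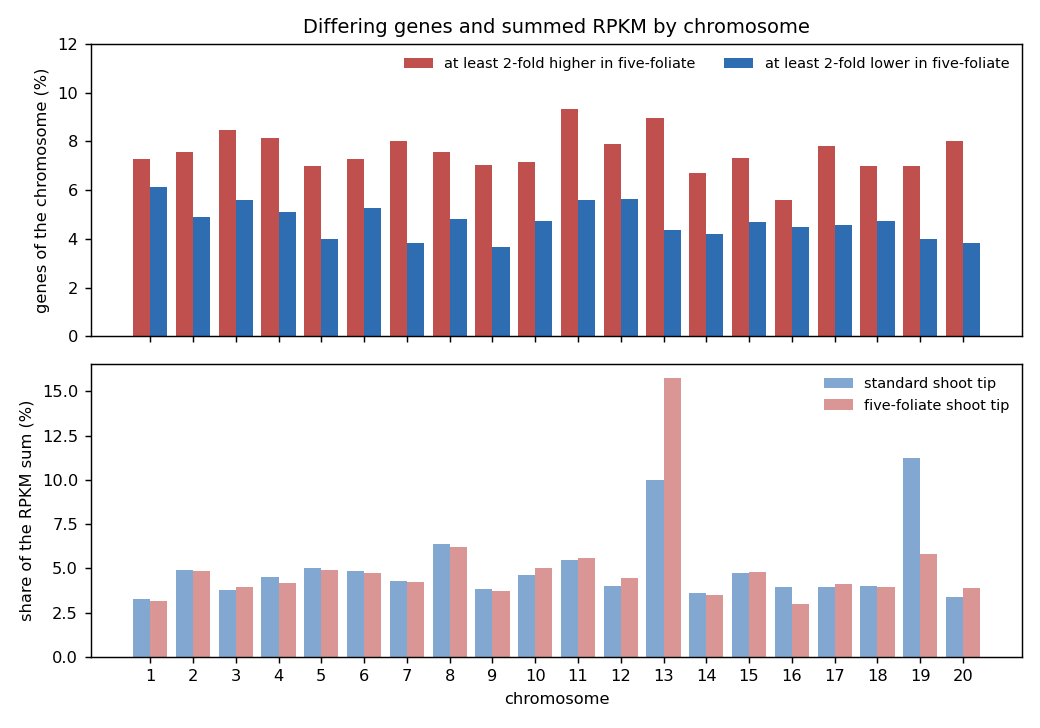
Upper panel, share of the genes of each chromosome (percent) at least 2-fold higher or lower in the five-foliate shoot tip; lower panel, share of the RPKM sum of each shoot tip library (percent) held by the genes of each chromosome. The shares of differing genes are similar across chromosomes, while chromosome 13 holds 9.99% of the standard and 15.7% of the five-foliate sum and chromosome 19 holds 11.2% and 5.78%.

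Genes that differed in the same direction often stood next to each other. Of 2765 higher genes placed on chromosomes, 403 (14.6%) were followed by another higher gene among the genes in the comparison, where 7.60% of all placed genes were higher. Of 1712 lower genes, 172 (10.05%) were followed by another lower gene, where 4.71% were lower. Without chromosome 13 the shares were 13.4% and 10.1%. With centred ratios they were 11.3% for higher and 14.4% for lower genes, against 3.03% and 8.21% of placed genes. Neighbouring copies of a gene can share reads, and how far that adds to these shares was not tested.

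The longest run held 31 consecutive higher genes on chromosome 13, and 1 other gene separated it from a second run of 9 higher genes. Median levels in the run of 31 were 241 and 1033 RPKM in the standard and mutant tips and 1265 and 2223 RPKM in the standard and mutant buds. The standard shoot tip was the low library there. Individual log2 ratios in the shoot tip lay between 1.04 and 2.32, and 26 of the 31 were at least 2-fold higher after centring. With centred ratios the longest run of higher genes had 15 members. Among the 37 genes of both runs with recovered reads, 4 had the same read number as another of them in all 4 libraries, for example 84268 reads in the standard and 312325 in the mutant tip.

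The longest runs of lower genes had 5 members, and 6 with centred ratios. A run of 5 on chromosome 14 had median levels of 10.9 and 4.28 RPKM in the standard and mutant tips and 6.33 and 4.12 in the standard and mutant buds. A run of 5 on chromosome 17 had medians of 4.24 and 0.718 RPKM in the standard and mutant tips but 0.978 and 4.40 RPKM in the standard and mutant buds, the opposite order. Runs of 6 higher genes were found on chromosome 2, with medians of 38.3 RPKM for the standard against 92.2 RPKM for the mutant tip, and on chromosome 20, with 2.07 and 7.35 RPKM. The run on chromosome 2 had bud medians of 40.6 RPKM in the standard line and 39.1 RPKM in the mutant, close to the standard tip, so the mutant tip was the high library there. A run of 5 higher genes on chromosome 10 had the other arrangement, with medians of 1.87 RPKM in the standard tip, 8.70 in the mutant tip, and 15.4 and 12.6 in the standard and mutant buds.

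In both directions the mutant tip had median levels nearer to the buds than the standard tip had, and the same held over all genes. The medians of all genes in the comparison were 4.13 and 5.39 RPKM in the standard and mutant tips. In the standard and mutant buds they were 5.72 and 5.45 RPKM. The 1717 lower genes had median levels of 10.7 and 2.70 RPKM in the standard and mutant tips and 2.45 and 2.45 RPKM in the standard and mutant buds. The 2780 higher genes had medians of 3.30 and 10.03 RPKM in the standard and mutant tips and 8.99 and 8.28 RPKM in the standard and mutant buds. The choice of the genes fixes the order of the tips, not that of the buds. It favours extreme tip values, so it raises the shares of outlying tips below, and the shares of all genes are no matched background. The standard tip was the highest of the 4 libraries for 1574 of the 1717 lower genes (91.7%), where it was highest for 17.4% of all genes. It was the lowest of the 4 for 2452 of the 2780 higher genes (88.2%), where it was lowest for 61.7% of all genes. The mutant tip was the lowest library for 36.3% of the lower genes, against 10.4% of all genes. For the higher genes it was the highest library in 58.3%, against 31.0% of all genes.

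Many of the lower genes were hardly read in the buds. Both buds were under 1 RPKM for 454 of the 1717 lower genes (26.4%), for 61 of the 2780 higher genes (2.19%) and for 5.79% of all genes. The lower genes held 27.9% of the RPKM sum in the standard tip, 7.47% in the mutant tip, and 3.86% and 3.40% in the standard and mutant buds.

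Between the bud libraries most of these genes differed little. The median bud log2 ratio of mutant to standard was -0.12 for the genes higher in the shoot tip, -0.06 for those lower there and -0.06 for all genes. Of the lower genes, 38 (2.21%) were also at least 2-fold lower in the mutant bud, against 0.134% of all genes, and 50 (2.91%) were at least 2-fold higher there, against 0.569%. Of the higher genes, 51 (1.83%) were at least 2-fold higher in the mutant bud and 0 were at least 2-fold lower.

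The choice between alternative models of a gene was nearly the same in both shoot tips. Of 6123 genes with several models at 1 RPKM or more, the leading model differed between the libraries for 437 (7.14%), and in 2 of these the share of a leading model in the summed RPKM of the gene differed by 0.2 or more. On chromosome 3 a gene had 64.7% of its sum in the leading standard model in the standard tip and 38.6% in the mutant tip, at summed levels of 4.17 and 1.68 RPKM. On chromosome 16 the shares were 55.0% and 33.2%, at summed levels of 1.63 and 5.38 RPKM. Models of a gene overlap, and reads on shared exons can count for each model, which draws the shares together.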

How the data were processed

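The authors deposited RPKM values for 78773 gene models in a table for each tissue; the unit is given per the file headers for the shoot tip, and the bud values gave whole reads by the same formula. The submitters' processing notes name Bowtie. Neither the genome build nor the annotation release is given in the sources used here, nor is the handling of reads that match several genes. Of 59048 reference genes (RefSeq table), 0 matched an identifier, so 28 planned gene lists and the tissue markers were not applied and no sequence is shown.

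Reads were recovered by finding the smallest whole length from 20 to 20000 that makes all values of a model whole within 0.0005 reads. Where the reads of a model share a factor with its length, this can give too short a length and too few reads. A length was found for 99.99% of 62593 models with 4 values above 0, against 0% of 3000 models shifted at random. None was found for 3 genes of the comparison. Intervals are exact (Clopper-Pearson) at 95%.

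Each ratio was the difference of log2(RPKM + 1), five-foliate minus standard, for genes at 1 RPKM or more in either shoot tip library. With 1 library per group no model was fitted. Counts were checked on simulated data. Named genes were the 12 highest and 12 lowest ratios reaching 5 RPKM in a shoot tip library. The comparison and its rules were chosen with earlier results of these data known. Alternatives changed the pseudocount, filter, threshold, scaling or model choice. Computations ran in Python 3.11.15 with pandas 2.3.3, numpy 2.4.6 and SciPy 1.17.1, and plots in matplotlib 3.10.9.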

Additional observations from a re-analysis of the deposited data

Results flagged for a closer look

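The genotypes differed in opposite directions in the tissues for 50 genes, whose level in the mutant was at least 2-fold lower in the shoot tip but at least 2-fold higher in the bud. Their medians were 6.16 and 0.733 RPKM in the standard and mutant tips and 1.19 and 4.87 RPKM in the standard and mutant buds. A 4-fold difference or more was reached by 19 of them in the shoot tip. The 50 genes were 2.91% of the 1717 lower genes, where 0.569% of all genes were at least 2-fold higher in the mutant bud. For the reverse pattern the count was 0 of the 2780 higher genes. Only 49 of all genes (0.134%) were at least 2-fold lower in the mutant bud, which leaves little room for that pattern. The gene on chromosome 1 among the 12 lowest ratios is of this kind, with a log2 ratio of mutant to standard of -5.16 in the shoot tip and 2.87 in the bud. The difference between the tissues was not tested, since each value rests on 1 library.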

How the results depend on the processing

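A pseudocount of 0.1 gave 7759 genes at 2-fold (5263 higher), 24.4% of the genes on chromosome 11, 763 genes in runs of 3 or more (298 as reported) and 3.12% of the lower genes also lower in the bud. A pseudocount of 5 gave 1544 genes, 819 higher and 725 lower. Centring gave 1108 higher and 2997 lower genes, 13.04% on chromosome 11, and bud shares of 1.23% (lower in both) and 4.24% (higher in both). Upper-quartile scaling left 1256 higher and 2499 lower genes, and scaling without the 20 most abundant genes left 1734 higher and 2113 lower. The 3-fold threshold gave 1210 genes (574 higher, 636 lower), 15.5% of the genes at 100 RPKM and over, 4.11% on chromosome 11, 60 genes in such runs and 3.14% of the higher genes also higher in the bud. Genes on in 1 tip alone numbered 49 at exactly 0 RPKM in the other and 24 at 5 RPKM or more. The 2 model changes became 0 at a share difference of 0.4 and 0 at 5 RPKM. A further 26 values stayed within 1.5 times or their interval, among them 245 genes in such runs without chromosome 13, chosen after seeing the data. For the 24 named genes, 66 of 72 values left their counting interval and none changed sign. Where scaling moved a count, other genes passed the threshold by construction; other causes were not tested. No paired analysis was possible because each group had 1 library, and for the same reason no replicate could be left out. Gene lists were not run.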

Other observations

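The recovered model lengths gave 1 further description of the shoot tip genes. In the fifth of genes with the longest models, from 2081 to 16411 bases, 2.38% were at least 2-fold lower in the mutant tip and 6.23% at least 2-fold higher, against 5.57% and 8.10% in the fifth with the shortest. The median log2 ratio was 0.35 and 0.31 in these classes. Longer models have more reads at the same RPKM, and the part of counting error in this difference was not tested.

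Few of the differing genes rested on low counts. At least 100 reads over both shoot tip libraries stood behind 98.7% of the higher and 97.0% of the lower genes, with medians of 2530 and 2308 reads. Near the 2-fold threshold, 484 higher and 200 lower genes lay between 2- and 2.1-fold, and 643 and 227 lay between 1.9- and 2-fold just outside it.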
